A study of Mus musculus with 2 samples.

Results

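Regulatory T-cells of the mouse parotid gland were described in 2 single-cell RNA libraries, 1 from control and 1 from irradiated (IR) glands. The cells were chosen by their own measured counts. A cell was taken as a member when it held at least 1 UMI (a counted transcript molecule) of Cd3d, Cd3e or Cd3g, no UMI of Cd8a or Cd8b1, fewer than 3 UMIs of the B-cell genes Cd79a, Cd79b and Ms4a1, and either a Foxp3 UMI or UMIs of both Ikzf2 and Ctla4. This gave 285 members among 8664 cells, 76 of 3378 in control and 209 of 5286 in IR. All mice were C3H females of 1 year with no transgene named in the labels, and each library pooled the glands of 2 animals dissociated together. The IR animals had received 6 Gy to the head and neck on each of 5 days, 30 Gy in all, and glands were collected 10 months later. Control animals were not irradiated. With 1 library a condition no difference between control and IR could be tested, and since the members were chosen from the same counts, no difference between members and other cells was tested either. Intervals are 95% intervals and cover counting error only.

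Regulatory T-cells are CD4 lineage T-cells that restrain other lymphocytes. Foxp3 is the transcription factor that fixes their identity, Ikzf2 encodes Helios, which marks many of them, and Ctla4 encodes a surface receptor that competes with CD28 for its ligands on antigen-presenting cells. They take up interleukin-2 through a high-affinity receptor that contains Il2ra (CD25), and those living in tissues can carry a repair programme that includes the growth factor amphiregulin (Areg). In GENCODE M21 on the mm10 assembly, Foxp3 lies on chromosome X at 7573644 to 7595245, Ikzf2 on chromosome 1 at 69531214 to 69687245, and Ctla4 on chromosome 1 at 60887000 to 60915832.

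The control library held 22707876 UMIs and the IR library 23890757 UMIs over all barcodes. Members had a median of 2653.5 UMIs in control and 2502 in IR, so single transcripts of low genes were often missed. Some members stood apart. The deepest control member held 56560 UMIs, against 18198 in the next, and 71.2% of its UMIs came from secretory genes of the salivary epithelium, where the median control member had 5.0%. In IR, 9 members held 3 or more UMIs of the MHC class II genes H2-Aa, H2-Ab1 and H2-Eb1, which antigen-presenting cells use and mouse T-cells scarcely express. Cells with such class II UMIs, with 3 or more UMIs of C1qa, C1qb and C1qc, or with over 50% of their UMIs on secretory genes are called mixed cells here. Leaving them out removed 1 control and 12 IR members and left 75 and 197. Members were compared with other cells with mixed cells kept, and genes of the lists that passed or failed differently without them are named. For control against IR it is said at each count which cells it covers. The 2 libraries shared 12 barcodes, of which none was a member.

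A Foxp3 UMI brought in 37 control and 105 IR members. The other 39 and 104 had Foxp3 at 0 and entered through Ikzf2 with Ctla4. The members summed to 71 Foxp3 UMIs in control (223 CPM, UMIs per 1000000 UMIs of the same cells; interval 174 to 282) and 160 in IR (220 CPM; 188 to 257), with at most 6 in 1 cell. Ikzf2 UMIs were present in 63 of 76 and 171 of 209 members, and Ctla4 UMIs in 73 and 185. These values chose the cells and are no finding. Exactly 1 Foxp3 UMI was held by 17 control and 74 IR members. Just outside the rule were 32 control and 69 IR cells with Ikzf2 but neither Ctla4 nor Foxp3, 101 and 346 with Ctla4 alone, and 7 and 5 with Foxp3 and a Cd8 UMI. B-cells held no Foxp3 UMI in either library (0 of 774 and 0 of 766 cells). A Cd4 UMI was found in only 16 control and 40 IR members, so most members were placed in the CD4 lineage by the absence of Cd8 and not by Cd4 itself.

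As a share of T-cells, the members of both libraries lay within counting error of each other. They made up 8.78% of CD3 cells without Cd8 UMIs in control (interval 6.98 to 10.9%) and 9.40% in IR (8.22 to 10.7%). The intervals overlapped. CD3 cells in these shares held fewer than 3 B-cell UMIs. Among all such CD3 cells the shares were 6.01% and 6.86%. Among all cells they were 2.25% (1.78 to 2.81%) and 3.95% (3.44 to 4.51%), and these intervals did not overlap. However, such CD3 cells were 1265 of 3378 cells in control and 3048 of 5286 in IR. After each cell was thinned to 1000 UMIs, leaving out 360 shallower control and 492 shallower IR cells, the shares of CD3 cells without Cd8 UMIs were 4.35% and 4.61%. With thinning to 500 UMIs outside secretory genes the order turned, to 3.31% and 2.76%, again with overlapping intervals. Both libraries came from dissociated tissue, so a share also depends on how well each cell type survived.

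**Figure D1:**
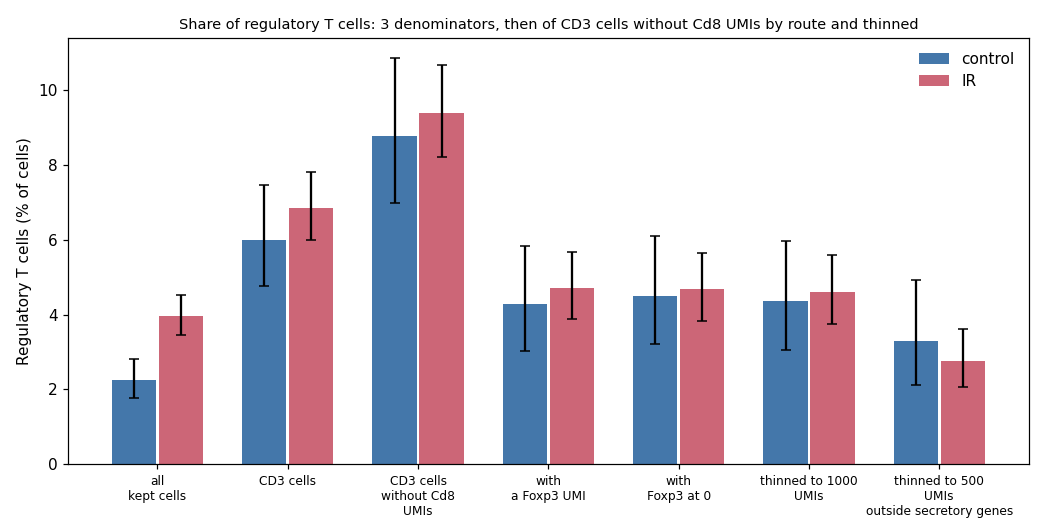
Percent of cells that were regulatory T-cells in control (blue) and IR (red), with 95% Clopper-Pearson intervals that cover counting error only. The first 3 pairs of bars use all cells, CD3 cells and CD3 cells without Cd8 UMIs as the denominator, and the other 4 split or thin the last of these. CD3 cells here held fewer than 3 B-cell UMIs. The libraries stand apart among all cells (2.25% and 3.95%) and overlap on the other denominators.

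The members carried the regulatory T-cell programme beyond the genes of the rule. For comparison, Cd4 T-cells outside the rule were the cells with CD3, without Cd8 UMIs and with fewer than 3 B-cell UMIs that held Cd4 but no Trdc UMI, no Foxp3 UMI and not both Ikzf2 and Ctla4 (151 control and 364 IR cells). Of 5277 genes with at least 50 UMIs over these cells and members, 194 (3.68%) stood at least 2 times higher in members in both libraries and 47 (0.891%) at most at 0.5 times. Without mixed cells the counts were 212 and 42 of 4995. With TMM scaling, which shifted the median log2 ratio over all genes from 0.16 to -0.05, they were 138 and 88. Of 24 further regulatory T-cell markers, 19 had enough UMIs, and 15 stood at least 2 times higher in both libraries and none at most at 0.5 times. The same 15 passed without mixed cells, of 18 compared. The median log2 ratio of the 19 was 2.20 in control and 1.75 in IR, beside 0.15 and 0.17 over all genes compared.

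Among receptors, Il2ra stood at 119 CPM in control members and 125 CPM in IR members. In Cd4 T-cells outside the rule it was 19.9 and 17.2 CPM, which gave ratios of 6.01 (3.01 to 13.03) and 7.27 (4.401 to 12.6). It was found in 25 of 76 and 55 of 209 members, in 6 of 151 and 14 of 364 Cd4 T-cells outside the rule and in 2 of 774 and 5 of 766 B-cells. Il2rb, the signalling chain shared with interleukin-15, was 4.94 times higher in control and 3.54 times in IR. Against CD8 T-cells it did not reach the mark, with a smaller log2 ratio of 0.44, and neither did Tnfrsf1b (0.53) and Cst7 (0.26) of this list. Lrrc32, which encodes GARP and holds latent TGF-beta at the cell surface, is a further marker of these cells that the rule did not use. It stood at 97.5 CPM in control members and 79.9 CPM in IR members. Outside the rule only 1 and 5 Lrrc32 UMIs were counted, so its ratios were 53.9 (8.98 to 2197) and 17.6 (7.13 to 56.3).

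Costimulatory receptors of the TNF receptor family also stood above the other Cd4 T-cells. Tnfrsf4 (OX40) reached 1242 CPM in control members and 850 CPM in IR members, against 101 and 131 CPM outside the rule, ratios of 12.3 (9.25 to 16.5) and 6.51 (5.42 to 7.86). Tnfrsf9 (4-1BB) had ratios of 14.1 (7.69 to 28.1) and 13.4 (8.44 to 22.5). Tnfrsf18 (GITR) was 663 and 442 CPM in members, 3.33 and 3.21 times the other Cd4 T-cells. Tnfrsf1b, the second TNF receptor, was 4.67 and 3.04 times higher. The costimulator Icos was 1041 CPM in control and 821 CPM in IR, 4.20 (3.43 to 5.16) and 2.19 (1.93 to 2.49) times the other Cd4 T-cells.

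Further markers on the higher side were the folate receptor relative Izumo1r (3.23 and 2.46 times), the adenosine-forming enzyme Nt5e (4.13 and 3.13), the transcription factor Ikzf4 (19.99 and 8.10), Nrp1 (4.64 and 6.07), the phosphatase Dusp4 (9.56 and 3.33), Capg (4.61 and 3.31) and Cst7 (2.75 and 3.37). Neither mark was met by Swap70, Gbp7, Cd81 and Plagl1. Of these, Plagl1 was 0.811 times the other Cd4 T-cells in control and 7.59 times in IR. Tigit and Entpd1, common markers of activated regulatory T-cells, had 4 UMIs each in control members and could not be compared at this depth.

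**Figure D2:**
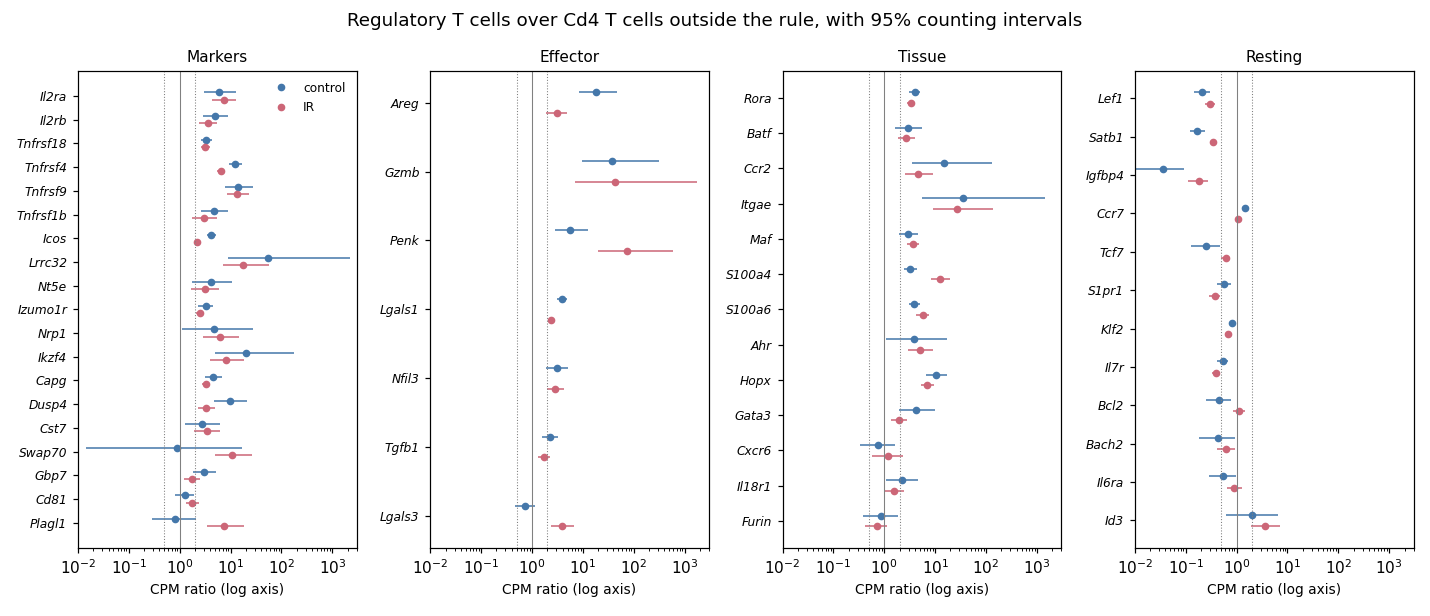
Ratio of CPM in regulatory T-cells to CPM in Cd4 T-cells outside the rule (log axis) for control (blue) and IR (red), by gene list, with 95% counting intervals; intervals past the axis are cut at its edge. Dotted lines mark 0.5 and 2 times. Tnfrsf4, Tnfrsf9 and Lrrc32 lie far to the right in both libraries and Igfbp4, Satb1 and Lef1 to the left.

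Of 7 suppressive or repair molecules with enough UMIs, 5 stood at least 2 times higher in members in both libraries, Areg, Gzmb, Penk, Lgals1 and Nfil3, and none lower. The same 5 passed without mixed cells. Against CD8 T-cells the smaller log2 ratio of Gzmb was 0.88. Lgals1, which encodes galectin-1, stood at 751 and 614 CPM, 3.88 and 2.40 times the other Cd4 T-cells, and was found in 43 and 89 members. Without members that held cell cycle UMIs the smaller of its log2 ratios was 0.25. Penk, the precursor of enkephalin peptides, had 36 UMIs in 9 control members and 95 UMIs in 14 IR members. Gzmb, a granzyme, had 43 UMIs in 7 control members and 28 UMIs in 6 IR members, so both genes came from few cells. Members with gamma-delta T-cell UMIs, 3 in control and 5 in IR, held 15 and 5 of these Gzmb UMIs. Tgfb1 was 2.22 times higher in control and 1.71 times in IR. Il10 had 17 UMIs in 7 control members and 31 UMIs in 8 IR members, and 0 and 1 UMI outside the rule. The p35 chain of interleukin-35, Il12a, had no UMI in any member.

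Genes of tissue regulatory T-cells gave 9 of 13 at least 2 times higher and none lower. Without mixed cells Gata3 passed as well. The integrin Itgae (CD103), which binds E-cadherin on epithelium, stood at 62.9 CPM in control members and 74.4 CPM in IR members, against 1 and 3 UMIs in all other Cd4 T-cells (ratios of 34.8, 5.56 to 1441, and 27.3, 8.87 to 137). It was found in 11 and 39 members. Hopx was 10.3 and 6.90 times higher, Rora 3.93 and 3.36, Maf 2.98 and 3.71, Batf 2.93 and 2.73, Ccr2 14.8 and 4.66 and Ahr 3.91 and 5.002. S100a4 was 3.24 and 12.6 times higher and S100a6 3.91 and 5.65. Against CD8 T-cells S100a6 did not reach the mark, with a smaller log2 ratio of 0.73, nor did it against the other Cd4 T-cells without members that held cell cycle UMIs (0.94). Il1rl1, the interleukin-33 receptor, had 17 UMIs in 4 control members and 3 UMIs in 3 IR members, and Klrg1 had 8 and 5 UMIs.

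Resting and recirculating T-cell genes lay on the other side, though not all of them. Of 12 compared, 3 were at most at 0.5 times in both libraries and none at least 2 times higher. Igfbp4 stood at 12.6 CPM in control members and 34.4 CPM in IR members, against 354 and 193 CPM in other Cd4 T-cells (ratios of 0.0355, 0.00957 to 0.0923, and 0.178, 0.113 to 0.270). Satb1, a chromatin organiser that Foxp3 is known to repress, had ratios of 0.169 and 0.351, and the transcription factor Lef1 0.210 and 0.300. Il7r, the interleukin-7 receptor, was 0.537 and 0.392, and S1pr1, which directs exit from tissue, 0.576 and 0.369. Ccr7, a lymph node homing receptor, was not lower. It stood at 1088 CPM in control members and 1089 CPM in IR members, 1.46 and 1.05 times the other Cd4 T-cells, and was found in 52 of 76 and 152 of 209 members.

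Among chemokine receptors and adhesion genes, 7 of 14 stood at least 2 times higher and none lower. Ccr6 had ratios of 9.56 (2.09 to 88.8) and 13.7 (5.44 to 44.1), Cxcr3 of 3.97 and 2.56, Cxcr4 of 3.13 and 2.15, and Cd44 of 3.06 and 2.24. Rgs1 and Rgs2, regulators of G-protein signalling, were 3.41 and 2.58 times and 2.38 and 2.25 times higher, and Itga4 2.01 and 2.48 times. With Foxp3-positive members alone the smaller log2 ratio was -0.017 for Itga4 and 0.94 for Rgs2. Without mixed cells that of Itga4 was 0.72. Under TMM scaling the smaller log2 ratios of Cxcr4 (0.90), Cd44 (0.96), Rgs2 (0.96), Itga4 (0.78) and, of the markers above, Icos (0.93) were under the mark. Without members that held cell cycle UMIs those of Itga4 (0.82) and Cd44 (0.97) were under it as well. With thinned cells that of Cd44 was 0.40, and against CD8 T-cells those of Cxcr3 (0.36), Cxcr4 (0.94) and Itga4 (0.57) were under it too.

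The other lists gave few genes past the mark. Of 16 lineage transcription factors, Id2, Bhlhe40 and Tox stood at least 2 times higher and none lower, and Tbx21 had 1 UMI in control members. Of 11 inhibitory and costimulatory receptors Pdcd1 did (7.62 and 4.56 times), of 15 interleukin-2 and cytokine signal genes Cish did and Ifngr2 was lower, and of 9 T-cell receptor genes Themis was lower. None of 20 immediate early and stress genes, none of 10 cell cycle genes and none of 4 helper cytokines passed in both libraries. The median log2 ratio of the cell cycle genes was 2.04 in control and 0.32 in IR. Without mixed cells Runx3, Nfkbia and Cd83 passed as well, all on the higher side, and so did markers of other cell types, Cd74 of the dendritic cell list (7.39 and 6.53 times) and Ighm of the B-cell and plasma cell list (2.91 and 3.14 times). The macrophage genes C1qa and C1qb, lower in members with mixed cells kept, then had too few UMIs to be compared. Of 21 genes taken from the study's text, some of which it names for other cell types, Itgae was higher and Ramp3 lower.

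Ranked by the smaller of the ratios in both libraries, the 10 genes highest in members were Gzmb, Gm28112, Itgae, Lrrc32, Eno3, Tnfrsf9, Lamc1, Rgs16, Wisp1 and Ccr6. Gm28112 is annotated as a sense intronic transcript on chromosome 1 at 69660187 to 69662061, within Ikzf2 and on its strand. Its 16 and 51 UMIs cannot be told apart from unspliced Ikzf2 reads, which would follow from the rule. The muscle-type enolase Eno3 had 9 UMIs in control members and 61 in IR members (15.6, 2.17 to 686, and 18.5, 7.52 to 59.1, times). Against CD8 T-cells its smaller log2 ratio was 0.97. Lamc1, a laminin chain, stood at 101 and 52.3 CPM, with 1 and 5 UMIs outside the rule. The signalling regulator Rgs16 was 16.5 and 11.2 times higher. The 10 lowest were C1qa, Igfbp4, C1qb, Ier3, Tdrp, Fam101b, Mucl2, Cep97, Slfn1 and Scml4. C1qa and C1qb are complement genes of macrophages. Macrophage markers summed to 510 UMIs in 20 of the 151 control Cd4 T-cells outside the rule and to 8 UMIs in the control members. Without mixed cells the lowest were Igfbp4, Tdrp and Pde3b, and the highest were Gzmb, Itgae and Lrrc32.

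Members with and without a Foxp3 UMI were compared to see whether the cells taken on Ikzf2 and Ctla4 alone had the same programme. Of the 194 higher genes, 192 in control and 193 in IR lay in the same direction in members with Foxp3 at 0 against the other Cd4 T-cells, and 140 and 173 of them reached 2 times. All 47 lower genes kept their direction. These counts are a description, since the same cells chose the genes. The levels were not equal. Il2ra was 187 CPM in control members with a Foxp3 UMI and 55.3 CPM in those with Foxp3 at 0, a ratio of 3.37 (1.55 to 8.10), and 172 and 80.6 CPM in IR, a ratio of 2.14 (1.36 to 3.43). Tnfrsf18 had ratios of 1.65 (1.24 to 2.20) and 1.53 (1.22 to 1.92), and Il10 of 4.88 (1.36 to 26.5) and 7.10 (2.47 to 27.9). The intervals of Lrrc32 held 1, at 0.661 (0.293 to 1.43) and 0.982 (0.565 to 1.70), and Ccr7 was lower with a Foxp3 UMI in control (0.548, 0.436 to 0.688) while its IR interval held 1 (0.883, 0.766 to 1.02). Secretory genes took 28.6% of the UMIs of the control members with Foxp3 at 0 and 4.27% of those with a Foxp3 UMI. The deepest control member, with Foxp3 at 0, was among the former. Without mixed cells Il2ra stayed higher with a Foxp3 UMI in both libraries (2.83, 1.21 to 7.64, in control and 2.53, 1.53 to 4.33, in IR). The interval of Tnfrsf18 then held 1 in control (1.10, 0.826 to 1.47) and not in IR (1.32, 1.04 to 1.66), as did that of Il10 (3.18, 0.889 to 17.3, from 14 and 3 UMIs, and 6.17, 2.15 to 24.3). Lrrc32 lay below 1 in control (0.431, 0.191 to 0.935) with an IR interval that held 1 (0.853, 0.491 to 1.48), and so did Ccr7 (0.358, 0.284 to 0.448, and 0.975, 0.836 to 1.14).

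Some members taken with Foxp3 at 0 held marks of other T-cells. UMIs of Trdc or of the Tcrg constant genes, which mark gamma-delta T-cells, were found in 3 control and 5 IR members, none of which held a Foxp3 UMI. Trdc had 30 UMIs in control, 23 of them in 1 member, and 9 in IR. Il17a had 19 UMIs in control, 18 of them in 1 member and the other 1 in a member with a Foxp3 UMI, and 4 UMIs in 2 IR members.

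Within the members, activated and resting genes were found in the same cells. At least 3 of 12 activated or effector genes had a UMI in 56.6% of control members (44.7 to 67.9%) and 43.5% of IR members (36.7 to 50.6%), against 6.62% and 6.87% of Cd4 T-cells outside the rule. After thinning to 1000 UMIs the shares were 34.2% and 20.1%, against 0.662% and 2.22%, and the control and IR intervals of the members overlapped. At least 3 of 5 resting genes had a UMI in 35.5% and 45.5% of members and in 78.8% and 77.7% of the other Cd4 T-cells. Of the 11 control members with Itgae, 7 also held Ccr7 and 5 held Lef1, and of the 39 in IR, 26 held Ccr7 and 8 held Lef1. Among all members Ccr7 was held by 52 of 76 in control and 152 of 209 in IR, and Lef1 by 25 and 65. Whether these pairs met more or less often than their separate shares give was not tested. Of the 7 control members with Il10, 1 also held Areg, and of the 8 in IR, 2 did.

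**Figure D3:**
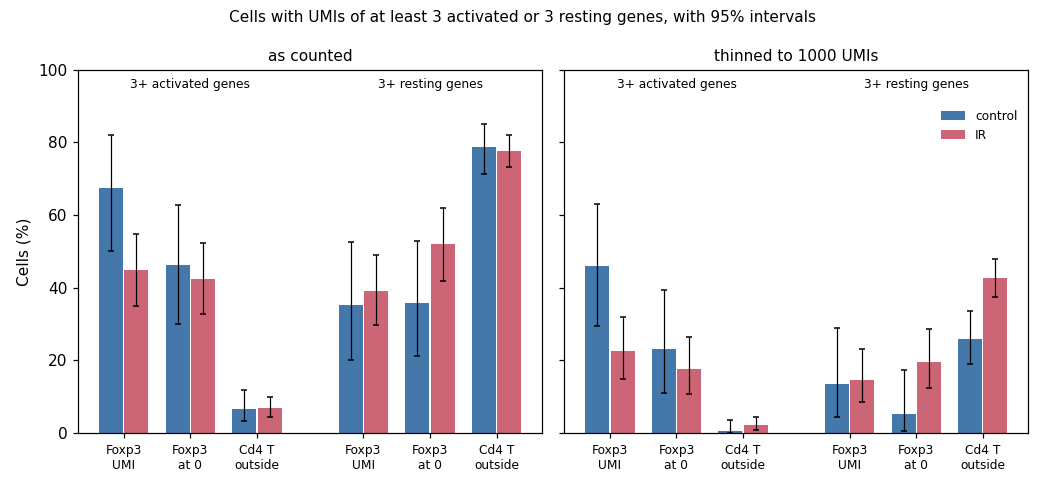
Percent of cells with UMIs of at least 3 of 12 activated genes (left group in each panel) or 3 of 5 resting genes (right group), for members with a Foxp3 UMI, members with Foxp3 at 0 and Cd4 T-cells outside the rule, as counted and thinned to 1000 UMIs, with 95% Clopper-Pearson intervals. The activated genes were rare outside the rule (6.62% and 6.87% as counted), and the resting genes were less frequent in members than outside the rule.

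Control and IR members were then set side by side. Of 2789 genes with at least 50 UMIs over all members, 182 (6.53%) stood at least 2 times higher in IR and 46 (1.65%) at most at 0.5 times control. The median log2 ratio over all genes was 0.23. The single control member with 56560 UMIs held 17.8% of all control member UMIs and is part of the total against which control CPM was taken. Without mixed cells the median was 0.04 and the counts were 93 higher and 56 lower of 2537, with 84 of the 93 and 26 of the 56 among the first set. Scaling without secretory and other abundant genes gave 123 and 65, and TMM 127 and 78.

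Many of the genes at both ends of that list had most of their UMIs in a handful of cells. The 10 highest in IR were H2-Aa, H2-Ab1, Basp1, H2-Eb1, Swap70, Ccl5, Marcks, Bcl2a1a, Ifi30 and Epsti1. H2-Aa had 1 UMI in control members and 146 in IR members, of which 82 were in 1 cell and 140 in members with Foxp3 at 0. Ccl5 had 28 UMIs in control and 913 in IR, of which 53.3% were in 1 cell. Basp1 had 2 and 167 UMIs, the latter in 9 members. Swap70 was spread more widely, with 1 UMI in control and 56 UMIs over 30 IR members, 42 of them in members with Foxp3 at 0. The 10 dendritic cell markers summed to 71 UMIs in control members and 1064 in IR members (223 and 1465 CPM), led by Cd74, with Cd209a and Siglech at 0 in both. Their part in the higher genes was not tested. Without mixed cells the log2 ratio of Ccl5 was 0.59 and that of Epsti1 0.80. At the low end, Bpifb1, Smr3a, Prb1 and Car6 encode secreted proteins of the salivary glands. One control member held 84.6% of the Smr3a UMIs of control members and 96.2% of those of Bpifb1. The other low genes were BC037156, Hspa1a, Hspa1b, Hist1h2ap, Lmna and Raph1. Of these, Lmna lay in 29 control members with 21.6% of its UMIs in 1 of them, Raph1 in 22 members (13.6%), Hspa1b in 23 (25.5%) and Hspa1a in 21, with 41 of its 108 UMIs in 1 member and 67.6% in 3. Hist1h2ap lay in 6 (40.3%). BC037156 had 71.0% of its control UMIs in 1 member, and Car6 72.1%. Without mixed cells the log2 ratios of BC037156 and Car6 were -0.72 and -0.64. Without the deepest member of each library they were -0.29 and -0.26.

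**Figure D4:**
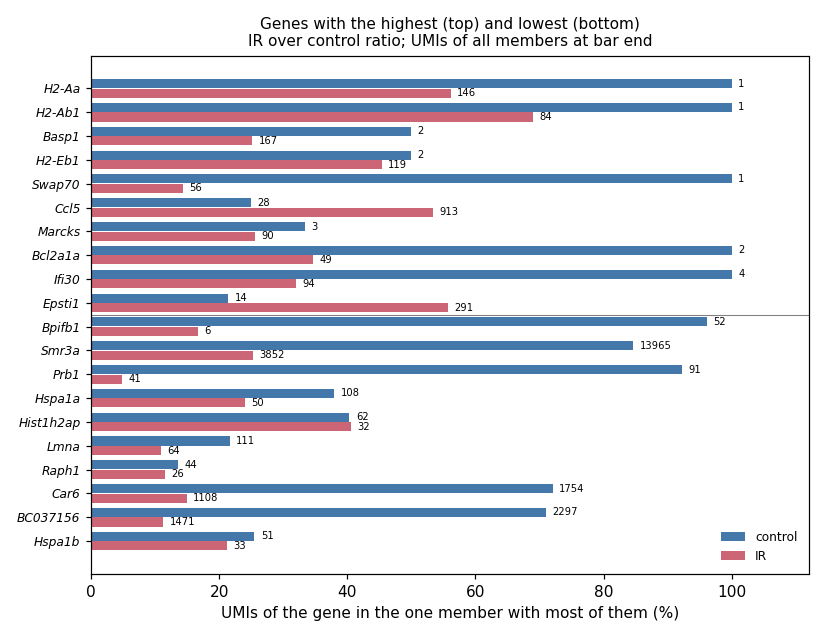
Percent of a gene's UMIs that lie in the single member holding most of them, in control (blue) and IR (red), for the 10 genes with the highest (above the line) and the 10 with the lowest IR over control ratio; the number at each bar is the total UMIs over all members. Ccl5 and Epsti1 had 53.3% and 55.7% of their IR UMIs in 1 cell, and Bpifb1, Smr3a and Prb1 most of their control UMIs. The bars at 100% stand for 1 to 4 UMIs in all.

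Without mixed cells, the gene with the highest IR over control ratio was Fxyd2, a salivary duct gene, with 4 UMIs in 4 control members and 73 UMIs in 7 IR members (7.54, 2.82 to 28.4). Among all IR members 38 of its 75 UMIs were in 1 cell. The next was Tcf7, and the genes higher in IR included further resting genes that were found across many members. Tcf7, a transcription factor of naive and memory-like T-cells, stood at 42.1 CPM in control members and 182 CPM in IR members, 4.32 times (2.33 to 8.90). It was found in 8 of 75 control and 69 of 197 IR members, and its log2 ratio lay between 2.07 and 2.53 in the 15 alternatives that gave a value, which kept mixed cells unless they were themselves left out. After thinning to 1000 UMIs, with mixed cells kept, 3.95% of control and 12.3% of IR members held a Tcf7 UMI. Also with mixed cells kept, it stood at 38.6 and 113 CPM in members with a Foxp3 UMI, and in those with Foxp3 at 0 at 36.9 and 244 CPM. In Cd4 T-cells outside the rule the Tcf7 ratio was 1.86 (1.45 to 2.41). Satb1 was 149 and 300 CPM (2.01 times, 1.42 to 2.92, in 22 and 88 members) and the survival gene Bcl2 65.0 and 133 CPM (2.04, 1.20 to 3.67, in 10 and 46 members). Outside the rule their ratios were 0.993 (0.881 to 1.12) and 0.905 (0.665 to 1.24). With Foxp3-positive members alone, and mixed cells kept, the Bcl2 log2 ratio was 0.47. That of Satb1 was under 1 in 6 alternatives and 0.64 at the lowest, with thinned cells. Of 9 resting genes compared, these 3 stood at least 2 times higher in IR and none at most at 0.5 times. The median log2 ratio was 0.45 beside 0.04 over all genes. Not all of the list rose. With mixed cells kept, the IR over control ratio in members was 0.692 (0.530 to 0.908) for Il7r and 0.708 (0.495 to 1.02) for S1pr1. Ccr7 was level (1088 and 1089 CPM). Klf2 (1.55), Lef1 (1.43) and Il6ra (1.59) lay above 1, the latter 2 with intervals that held 1. With mixed cells kept, the intervals of the share of members with at least 3 resting genes overlapped between the libraries. Whether the ratio in members differs from that outside the rule was not tested.

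Of 19 immediate early and stress genes, Fos and Jun were at least 2 times higher in IR without mixed cells, and the median log2 ratio of the list was 0.05. With mixed cells kept neither reached the mark, at 1.84 and 1.77 times. The single deepest control member held 41 of the 65 Fos UMIs and 27 of the 77 Jun UMIs of control. Without mixed cells, Fos stood at 91.8 CPM in control and 338 CPM in IR members (3.69, 2.41 to 5.88), and outside the rule its ratio was 3.44 (2.49 to 4.84). Jun was 2.31 times higher (3.27 outside), whereas Ier2 was 0.633 and Btg2 0.622. The retention marker Cd69 was 153 and 316 CPM, 2.07 times (1.47 to 2.98), against 4.08 times (2.84 to 6.03) outside. Without only the deepest member of each library its log2 ratio in members was 0.987, just under the mark. The interferon-induced genes Isg15 and Ifit1 were 3.22 (2.02 to 5.42) and 4.19 (1.93 to 10.8) times higher in members, with ratios of 1.09 (0.676 to 1.82) and 2.10 (0.780 to 7.06) outside the rule. The decoy interleukin-1 receptor Il1r2 had 14 UMIs in 7 control members and 110 UMIs in 30 IR members (3.25, 1.86 to 6.13). The aryl hydrocarbon receptor Ahr was 34.4 and 75.9 CPM (2.20, 1.07 to 5.11).

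Among heat shock genes of that list, Hspa1a and Hspa1b were at most at 0.5 times control in IR members, and Hsp90aa1 (0.532), Dnaja1 (0.679), Dnajb1 (0.920) and Hspa8 (1.06) were not. Counts and values in this paragraph are without mixed cells unless stated. Hspa1a stood at 390 CPM in control members and 36.4 CPM in IR members (0.0932, 0.0566 to 0.148), with the control UMIs concentrated as described above, and its ratio outside the rule was 0.350 (0.256 to 0.477). With mixed cells kept its ratio in members was 0.203 (0.142 to 0.286). Hspa1a then stood at 534 and 33.9 CPM in members with a Foxp3 UMI, and at 154 and 102 CPM in those with Foxp3 at 0. For Hspa1b the ratio outside the rule was 0.684, with an interval that held 1 (0.464 to 1.02). The nuclear lamina gene Lmna was 413 and 91.7 CPM (0.222, 0.158 to 0.308; 0.434 outside) and Crip1 2172 and 702 CPM (0.323, 0.285 to 0.366; 0.389 outside). For Hspa1a, Lmna and Crip1 IR lay below control in both cell sets. Among regulatory T-cell markers, Tnfrsf1b was the only one of 16 past the mark, at 164 and 60.1 CPM (0.365, 0.230 to 0.579), found in 28 of 75 control and 32 of 197 IR members. None was at least 2 times higher. Swap70, which was with mixed cells kept, had too few UMIs without them to be compared. The median log2 ratio of the 16 was -0.44. Tnfrsf4 (0.620, 0.545 to 0.707) and Tnfrsf18 (0.613, 0.513 to 0.734) were lower by less than 2 times, as was Icos (0.713, 0.621 to 0.819), whose ratio outside the rule was 1.45. The ratio of Tnfrsf4 outside the rule was 1.19 (0.863 to 1.65). Not all markers fell. Capg (1.62, 1.30 to 2.03) and Izumo1r (1.30, 1.04 to 1.64) stood higher in IR members with mixed cells kept. With mixed cells kept, Tnfrsf18 (0.666 in members) and Tnfrsf1b (0.407) stood lower in IR outside the rule too. This follows from their ratios to the other Cd4 T-cells given above. Whether members differed from those cells was not tested. Among members, the intervals of Il2ra (0.953, 0.637 to 1.45) and Lrrc32 (0.773, 0.492 to 1.24) held 1. The calcium-binding S100a6 was 723 and 289 CPM (0.400, 0.325 to 0.493), with 0.368 outside the rule. Without members that held cell cycle UMIs, and with mixed cells kept, its log2 ratio was -0.40 and that of Tnfrsf1b -0.96.

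Areg and Gzmb were the suppressive or repair molecules past the mark among 7 compared, both with mixed cells kept and without them. Areg stood at 279 CPM in control and 80.6 CPM in IR members without mixed cells (0.289, 0.198 to 0.419). The value rested on few cells. Of 73 Areg UMIs in control members, 32 were in 1 member, and the 3 members with gamma-delta UMIs held 34. With mixed cells kept, the log2 ratio of Areg was -1.57. From there it moved to -0.70 without members with gamma-delta UMIs, and with Foxp3-positive members alone it was 0.076. In the latter Areg was 96.5 CPM in control and 102 CPM in IR. Without mixed cells Gzmb was 164 and 44.3 CPM. It came from 7 control and 6 IR members, and 37 of its 43 control UMIs were in members that also held UMIs of the cell cycle genes Mki67, Top2a, Birc5 or Ube2c.

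Of the other lists without mixed cells, tissue genes gave Ahr higher and S100a6 lower among 11, chemokine and adhesion genes Gpr183 and Cd69 higher and S1pr4 lower among 14, and lineage transcription factors Ikzf3 lower among 13. Immediate early and stress genes gave Fos and Jun higher and Hspa1a and Hspa1b lower among 19, and cell cycle genes Mki67, Top2a and Ube2c lower among 8. With mixed cells kept, S1pr4, Ikzf3, Mki67, Fos and Jun did not pass in these lists and Cd83 was higher. Without mixed cells none of 12 cytokine signal genes, 9 T-cell receptor and Cd4 genes, 7 inhibitory and costimulatory receptors or 2 helper cytokines passed. Markers of other cell types also passed without mixed cells. Of 9 salivary epithelial genes, Klk1 and Fxyd2 were higher in IR and Smr3a and Dcpp1 lower. Of 3 B-cell and plasma cell genes Ighm was higher (2.23 times), and the 1 natural killer gene compared, Nkg7, was higher as well (2.67 times). Their part in the other ratios was not tested. Of the 21 genes taken from the study's text, Jun and Fos were higher and Ctla2a, Crip1, Hspa1a, Gm42418 and Hba-a1 lower. Among all members, 94.7% of the 1178 control Hba-a1 UMIs lay in 3 members and 64.3% of the 902 in IR lay in 1. Itgae was near equal at 76.5 and 79.0 CPM (1.03, 0.604 to 1.83).

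**Figure D5:**
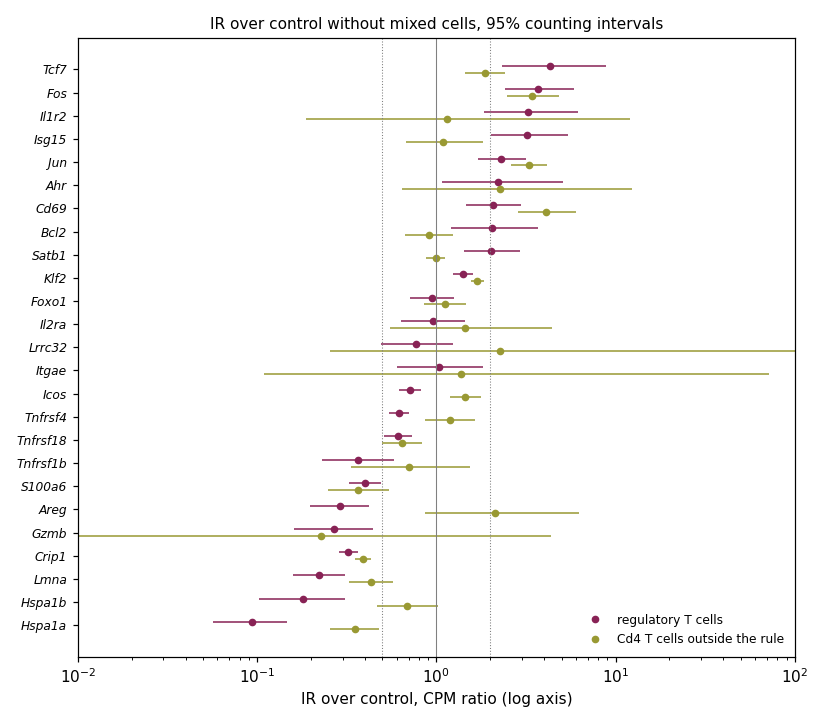
IR over control ratio of CPM (log axis) without mixed cells, in regulatory T-cells (purple) and in Cd4 T-cells outside the rule (olive), with 95% counting intervals; intervals past the axis are cut at its edge and dotted lines mark 0.5 and 2 times. Genes outside the gene lists were chosen after their values were seen. Tcf7 lies to the right in both cell sets and Hspa1a, Lmna and Crip1 to the left in both, while Satb1 and Bcl2 lie to the right in regulatory T-cells and near 1 outside the rule.

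RNA of other cells was measured in the members as a background. The 13 salivary epithelial genes summed to 50967 UMIs in control members and 40567 in IR members, and all 76 and 209 members held some. The deepest control member held 20072 of the 27202 Bpifa2 UMIs of control. Without mixed cells the sums were 12314 and 27349 UMIs (47092 and 43228 CPM). B-cell and plasma cell markers summed to 99 and 340 UMIs, with Xbp1 the highest in control and Ighm in IR, and Pax5 and Cd22 at 0. Natural killer markers summed to 16 and 83 UMIs, of which 11 and 75 were Nkg7, with Ncr1, Klre1 and Klra8 at 0. Macrophage markers summed to 8 and 83 UMIs, led by Apoe, with Adgre1, Cd68 and Csf1r at 0. Of 7 thymocyte genes, Rag1, Rag2, Dntt, Ptcra and Arpp21 were at 0 in members of both libraries.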

How the data were processed

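Single-cell 10x libraries of pooled parotid glands were analysed from the gene by barcode matrices. The deposited values were UMI counts per gene, which the authors made with Cell Ranger (3.0.1 in the submitters' processing notes) on mm10, without normalization. As in the study, barcodes under 200 detected genes or above 5% mitochondrial UMIs were dropped. Members and gene lists were chosen with earlier results of these data known. Within each library the counts of a class were added up and divided by the class total to give CPM. Intervals were exact Poisson for sums, Clopper-Pearson for shares and exact conditional binomial for ratios, at 95%. Genes entered counts and lists with at least 50 UMIs and at least 1 UMI in each sum, against a mark of 2 times. Fold ratios are those of UMI sums. No test was run, because each condition had 1 library and the members were chosen on the same counts. Named genes were the 10 highest and 10 lowest of each comparison, the rule's genes and members of 20 gene lists. Other genes, such as Isg15, Ifit1, Il1r2, Lmna and Crip1 without mixed cells, were chosen after their values were seen. The genes of the rule itself (11), and Cd4 and Trdc in the comparison of cell types, were left out of the ranking. The code was tested on simulated counts. Doublets were scored with Scrublet in scanpy 1.11.5. It called 32 control and 1 IR cell, no members among them, so no cell was removed on its call and an alternative left out the 6% with the highest scores, 1 control and 11 IR members. TMM factors came from edgeR 4.0.16. Thinning drew 1000 UMIs per cell. Some genes, and the alternatives that need them, are not reported here.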

Additional observations from a re-analysis of the deposited data

Results flagged for a closer look

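Ube2c, Top2a, Mki67 and the histone gene Hist1h2ap lay in opposite directions in members and in Cd4 T-cells outside the rule when IR was set against control without mixed cells, with both ratios past 2 times. The other 5 of 8 cell cycle genes compared did not pass in members, with ratios from 0.683 (Birc5) to 1.24 (Tyms). The difference was not tested. Ube2c had an IR over control ratio of 0.250 in members and 5.11 outside the rule, Top2a 0.276 and 6.58, Hist1h2ap 0.120 and 3.05, and Mki67 0.457 and 19.8, the last with an interval of 5.33 to 166 with only 2 Mki67 UMIs counted outside the rule in control. The UMIs lay in few cells. The 47 Mki67 UMIs of control members were in 4 cells and the 52 of IR members in 15, and the 87 UMIs of the other IR Cd4 T-cells were in 7 cells, 46 of them in 1. Klk1, a salivary kallikrein, had a ratio of 2.66 in members and 0.489 outside the rule, and 80 of its 90 UMIs in IR members were in 1 cell.

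Barcodes left out by the cell filter also held counts that met the member rule. They were 69 IR barcodes, 9.84% (7.74 to 12.3%) of the left-out barcodes with CD3 and without Cd8 UMIs, and 26 control barcodes, 6.55% (4.32 to 9.45%). All of them were left out for their mitochondrial share.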

How the results depend on the processing

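The numbers of genes past the mark followed the size of the mark and the minimum of UMIs. Beside 194 higher and 47 lower in members than in other Cd4 T-cells, and 182 higher and 46 lower in IR than in control members, a mark of 1.5 times gave 524, 166, 630 and 147, a mark of 3 times 67, 15, 47 and 14, a minimum of 20 UMIs 344, 100, 617 and 126, and no minimum beyond 1 UMI per sum 462, 116, 1463 and 1282. Cells thinned to 1000 UMIs before summing gave 81, 19, 29 and 25, with 1980 genes compared for the first 2 counts and 742 for the others. TMM scaling gave 88 lower genes in members and 78 in IR. Against other cells, the members gave 420 higher and 147 lower (CD8 T-cells) and 489 and 110 (all CD3 cells without Cd8 UMIs outside the rule). The control library alone gave 158 higher and 77 lower genes of 1953 compared, and the IR library alone 275 and 90 of 4254. With all members 2789 genes were compared between IR and control. With Foxp3-positive members alone, 46 of 1451 genes compared were higher in IR and 36 lower. Without mixed cells 93 and 56 of 2537 were, and without mixed cells and abundant genes 85 and 52 of 2513. Without the deepest member of each library they were 121 and 61 of 2694, and without members with cell cycle UMIs 136 and 30 of 1933.

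The share of members among CD3 cells without Cd8 UMIs became 4.27% in control and 4.72% in IR with a Foxp3 UMI required, 4.35% and 4.61% after thinning to 1000 UMIs, and 3.31% and 2.76% after thinning to 500 UMIs outside secretory genes. It was 6.01% and 6.86% of CD3 cells with fewer than 3 B-cell UMIs, and 2.25% and 3.95% of all cells. Thinned members held at least 3 activated genes in 34.2% (control) and 20.1% (IR) of cells and at least 3 resting genes in 9.21% and 17.2%. The direction turned for Itga4 (-0.017), Car6 (0.037) and Areg (0.076) with Foxp3-positive members alone (log2 ratios). The cause was not tested. Mixed cells, thinning before summing, the deepest members, gamma-delta and cell cycle members and the widest comparison set were chosen as alternatives after seeing the data. No paired analysis was possible because each condition had 1 library. At these depths, counts and lists took genes with at least 50 UMIs unless another minimum is named, and ratios given for rarer genes, such as Il10, have wide intervals.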
